A study of Mus musculus with 9 samples.

Results

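The expression of 10 marker genes of Kupffer cells and other liver macrophages was followed through liver regeneration: Clec4f, Timd4, Vsig4, Cd5l, Marco, Cd163, C1qa, C1qb, C1qc and Csf1r. They were taken by gene name from a table of 43346 mouse genes, in which each of the 10 names occurs once. The libraries were made from polyadenylated RNA of whole liver, 3 biological replicates in each of 3 groups. All mice were male, of strain C57/BL6 and 12 weeks old, and no genetic modification is named for them. The baseline group (0 h) held liver pieces resected from vehicle-treated mice during a 70% partial hepatectomy. The vehicle group held the liver remnants of mice given normal saline, 40 h after the same operation. The NSC group held remnants at 40 h from mice given NSC87877, a small molecule inhibitor of the phosphatases SHP1 and SHP2. It was given at 7.5 mg/kg per dose i.p., 2 doses per day. The sample records place the first dose 12 h before surgery. No liver piece resected at 0 h from NSC-treated mice was analysed here, so both 40 h groups were set against the same 3 vehicle-treated baselines. Between NSC and baseline, the inhibitor and the operation therefore changed together. Baseline tissue was the resected piece and 40 h tissue the remnant, so that time after surgery and the part of the liver sampled cannot be told apart.

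Kupffer cells are the resident macrophages of the liver. They line the sinusoids, take up bacteria, aged red blood cells and debris from portal blood, and depend on signals from the receptor encoded by Csf1r. Embryonically derived Kupffer cells carry the lectin receptor CLEC4F, the phosphatidylserine receptor TIM4 (Timd4) and the complement receptor CRIg (Vsig4), and secrete the soluble scavenger protein CD5L, also called AIM. MARCO and CD163 are scavenger receptors, the first for bacteria and particles and the second for hemoglobin bound to haptoglobin. The genes C1qa, C1qb and C1qc encode the 3 chains of C1q, which starts the classical complement pathway. Monocytes that enter an injured liver can become macrophages and acquire these markers with time, Timd4 late among them.

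The promoters of the members whose expression differed most between groups, with Clec4f beside them as the Kupffer cell lectin that did not rise, are printed here as the regions in which factors that act in macrophages could bind. Each is the RefSeq window of 300 bases (build GRCm38.p6), from 250 bases before to 50 bases after the gene start, read 5′ to 3′ on the strand of the gene. The start is that of RefSeq. Capitals mark GAGGAA or its reverse complement TTCCTC, a sequence bound by the macrophage factor PU.1. The windows are chr1:120504975-120505274 (minus strand) for Marco, chr3:87357631-87357930 (plus strand) for Cd5l, chrX:96293389-96293688 (minus strand) for Vsig4, chr11:46810549-46810848 (plus strand) for Timd4 and chr6:83656067-83656366 (minus strand) for Clec4f.
Marco: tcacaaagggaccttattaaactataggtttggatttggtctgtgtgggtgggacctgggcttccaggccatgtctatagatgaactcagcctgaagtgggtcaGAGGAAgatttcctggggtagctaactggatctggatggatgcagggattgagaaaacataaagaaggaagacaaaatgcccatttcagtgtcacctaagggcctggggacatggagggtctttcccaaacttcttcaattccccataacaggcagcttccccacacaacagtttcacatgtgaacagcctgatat
Cd5l: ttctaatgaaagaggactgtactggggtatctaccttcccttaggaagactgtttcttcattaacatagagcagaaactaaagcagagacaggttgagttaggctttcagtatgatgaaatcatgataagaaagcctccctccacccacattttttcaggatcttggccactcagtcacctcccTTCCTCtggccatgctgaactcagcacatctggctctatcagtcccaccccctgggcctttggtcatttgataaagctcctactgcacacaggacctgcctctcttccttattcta
Vsig4: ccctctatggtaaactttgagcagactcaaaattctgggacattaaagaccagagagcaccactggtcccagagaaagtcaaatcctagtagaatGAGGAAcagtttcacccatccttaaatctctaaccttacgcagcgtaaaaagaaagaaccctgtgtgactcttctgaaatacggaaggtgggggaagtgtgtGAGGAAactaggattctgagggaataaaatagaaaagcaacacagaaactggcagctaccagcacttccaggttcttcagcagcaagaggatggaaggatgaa
Timd4: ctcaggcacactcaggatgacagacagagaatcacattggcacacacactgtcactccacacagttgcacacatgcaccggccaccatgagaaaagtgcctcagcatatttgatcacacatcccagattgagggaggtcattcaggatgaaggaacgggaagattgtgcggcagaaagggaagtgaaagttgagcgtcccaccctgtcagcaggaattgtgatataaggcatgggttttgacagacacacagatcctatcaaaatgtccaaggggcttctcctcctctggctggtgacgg
Clec4f: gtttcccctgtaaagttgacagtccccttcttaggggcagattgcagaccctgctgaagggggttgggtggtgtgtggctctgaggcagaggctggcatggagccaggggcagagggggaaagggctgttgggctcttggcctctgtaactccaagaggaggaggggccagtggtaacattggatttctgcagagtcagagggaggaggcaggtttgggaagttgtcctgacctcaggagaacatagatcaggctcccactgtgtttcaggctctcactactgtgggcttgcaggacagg

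Windows were matched for 8 of the 10 members, the 5 above and C1qb, C1qc and Cd163. Windows on chromosome 18, where Csf1r lies, were not used, and none was available for C1qa. On either strand, GAGGAA occurred in 5 of these 8 windows. Counted from the gene start, it lay at -146 in Marco, -66 in Cd5l, -30 in C1qb and -193 in C1qc, and at -155 and -53 in Vsig4. Of the 32851 RefSeq windows of this length on the other chromosomes, 28.3% held it. TGCTGA, which is part of the sites of MAF family factors, occurred in 5 of 8 windows (Cd5l, C1qb, Clec4f, Timd4 and Vsig4) and in 19.5% of the 32851 windows. The AP-1 site TGANTCA was in none of the 8 windows and in 7.81% of the 32851 windows. CACGTG was in none of the 8 and in 7.15%, and TATAAA was in none of the 8 and in 13.6%. These matches did not overlap each other. The windows of Timd4 and Clec4f thus held TGCTGA without GAGGAA, and those of Cd5l and Vsig4 held both. Letters in a window describe the sequence and do not show binding.

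Libraries held between 23997363 and 42887589 reads counted on genes, and 3 reads corresponded to 0.07 to 0.125 CPM (counts scaled to a common library total) in a library. Levels within a gene are given as CPM scaled by TMM factors, which adjust library totals for composition. The members were counted with between 66 reads (Timd4) and 5758 reads (Cd5l) per library, so that depth did not limit their detection. Livers of the same group differed in these genes together. NSC replicate 1 had the highest level of all 9 libraries for 9 of the 10 members, vehicle replicate 3 had the lowest level in its group for 9 of 10, and vehicle replicate 2 the highest in its group for 9 of 10. The median log2 difference of the members from the baseline mean was 1.07 in NSC replicate 1, against 0.24 and 0.52 in NSC replicates 2 and 3. It was -0.001, 0.43 and -0.26 in vehicle replicates 1, 2 and 3. In whole liver, fewer cells of a type and less RNA per cell cannot be told apart.

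The markers did not move as a block after hepatectomy. In the vehicle group, only Marco among the 10 rose over baseline (edgeR quasi-likelihood test, Benjamini-Hochberg adjusted p under 0.05), by 10.5-fold. In the NSC group Marco, Timd4, Cd5l and Vsig4 rose, by 17.2-fold, 2.78-fold, 2.63-fold and 2.16-fold. The 3 C1q genes, Csf1r, Cd163 and Clec4f did not pass in either comparison, and no member fell. Between the 2 groups at 40 h all 10 log2 fold changes were above 0 in the NSC group, and none passed. The 1 of 10 members that rose with vehicle compares with 12.7% of the 15024 genes tested, and the 4 of 10 that rose with NSC with 18.2%. The shares of all genes that fell were 11.0% with vehicle and 16.5% with NSC. A rise beyond 1.5 on the log2 scale was met by Marco alone among the members in both comparisons, against 5.03% of all genes with vehicle and 5.38% with NSC. The median log2 fold change of the members was 0.05 with vehicle, 0.52 with NSC and 0.67 between NSC and vehicle, and that of all genes was 0.01, 0.01 and 0.02. Single livers moved these medians. With vehicle the median was 0.31 without baseline replicate 1, -0.05 without baseline replicate 3, 0.19 without vehicle replicate 3 and -0.12 without vehicle replicate 2. Without NSC replicate 1 it was 0.34 with NSC, where 4 members passed as before, and 0.29 between NSC and vehicle. Between NSC and vehicle it was 0.41 without vehicle replicate 3.

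**Figure D1:**
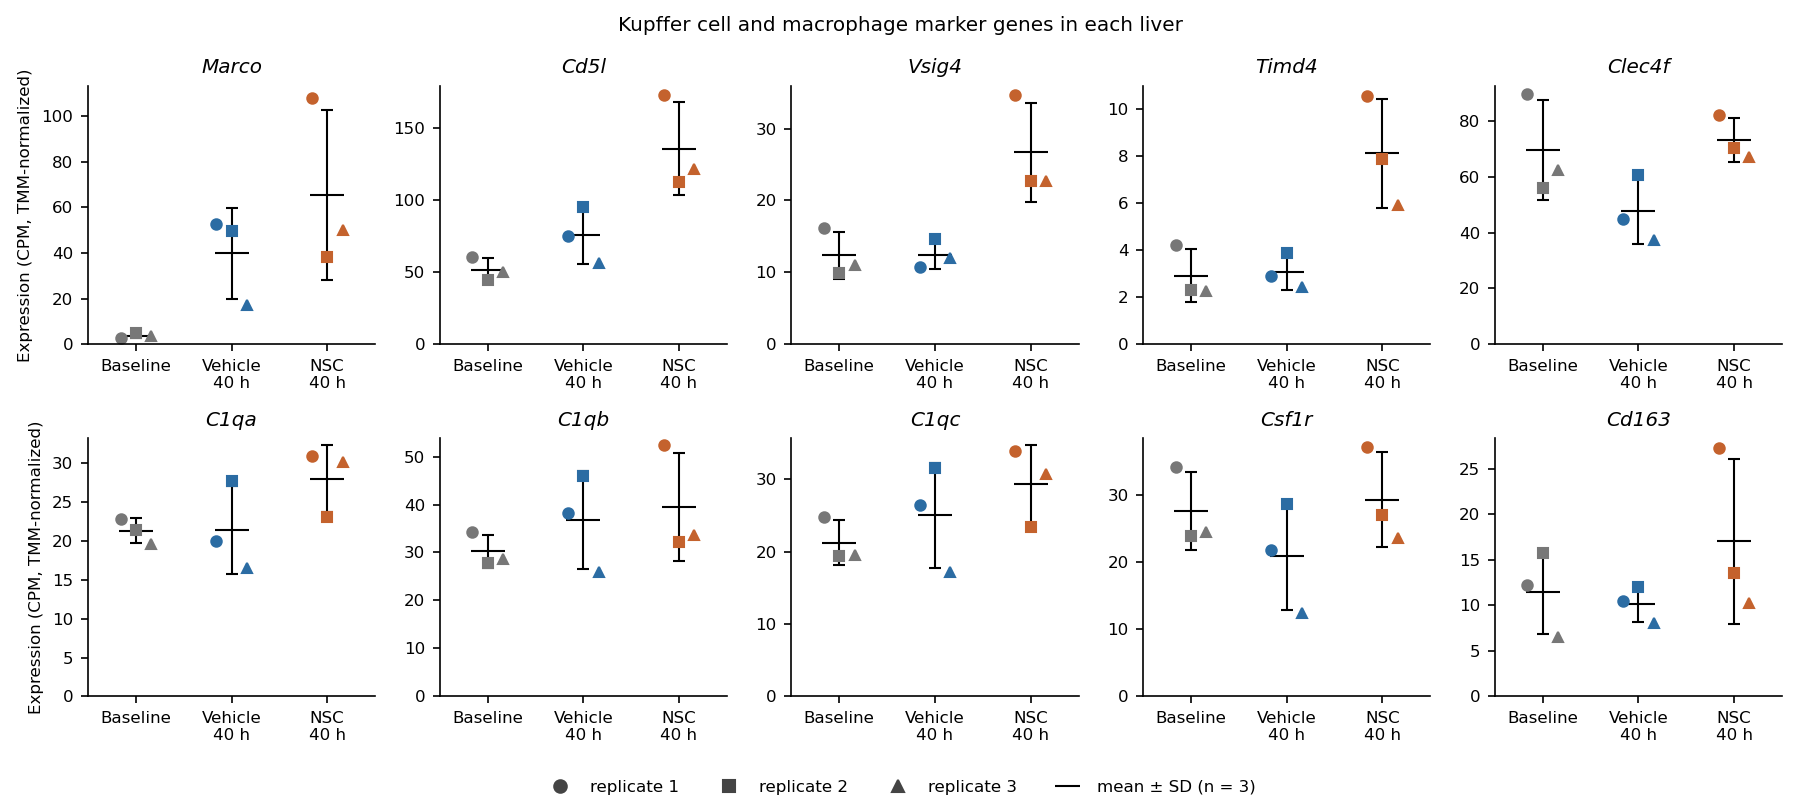
Level of each of the 10 marker genes in each liver, in TMM-normalized CPM on linear axes that start at 0, for baseline, vehicle at 40 h and NSC at 40 h (n = 3 each). Points are single livers with a shape for each replicate number, and bars give mean ± SD. The Marco points of both 40 h groups lie above all baseline points, and for Cd5l, Vsig4 and Timd4 the NSC points lie above all others.

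Marco, the scavenger receptor for bacteria, was, per gene length, the member with the lowest mean baseline level after Timd4, and it had the largest rise among the 10. Its level was 2.62, 5.07 and 3.73 CPM in the 3 baseline livers, 52.7, 49.8 and 17.0 CPM in the vehicle livers and 108, 38.4 and 50.1 CPM in the NSC livers. Every 40 h liver was above every baseline liver, and the 2 groups at 40 h overlapped. The log2 fold change over baseline was 3.39 ± 0.59 (SE) with vehicle (adjusted p = 0.0056) and 4.10 ± 0.60 with NSC (adjusted p = 0.0019). Of the 15024 genes, 253 had a larger log2 fold change than Marco with vehicle. NSC and vehicle differed by 0.72 ± 0.52 on the log2 scale (adjusted p = 0.48), a difference within the spread of the livers. Without NSC replicate 1 that difference was 0.15, and without vehicle replicate 3 it was 0.35.

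Timd4, the receptor for phosphatidylserine on dying cells, had the lowest mean baseline level of the members per gene length. It measured 4.20, 2.29 and 2.24 CPM at baseline, 2.88, 3.89 and 2.44 CPM with vehicle and 10.5, 7.88 and 5.91 CPM with NSC. Baseline and vehicle livers overlapped throughout, and the lowest NSC liver was above the highest of the other 6. Its log2 fold change was 0.08 ± 0.32 with vehicle (adjusted p = 0.88) and 1.48 ± 0.31 with NSC (adjusted p = 0.0040). Between NSC and vehicle it was 1.40 ± 0.31 (edgeR adjusted p = 0.0849).

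Vsig4, the complement receptor through which Kupffer cells clear C3-coated bacteria, had the same shape. The livers measured 16.1, 9.92 and 11.02 CPM at baseline, 10.8, 14.6 and 12.0 CPM with vehicle and 34.6, 22.6 and 22.8 CPM with NSC. All 3 NSC livers were above the 6 others, which overlapped. The log2 fold change was 0.01 ± 0.23 with vehicle (adjusted p = 0.98), 1.11 ± 0.23 with NSC (adjusted p = 0.0032) and 1.10 ± 0.23 between NSC and vehicle (adjusted p = 0.0849). In that last comparison 106 genes had a larger log2 fold change than Timd4 and 258 a larger one than Vsig4.

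Cd5l, the secreted scavenger protein of macrophages, had an intermediate vehicle group. Its levels were 60.3, 44.5 and 50.1 CPM at baseline, 75.0, 95.3 and 56.2 CPM with vehicle and 173, 113 and 122 CPM with NSC. Vehicle replicate 3 lay within the baseline range, the other vehicle livers lay above it, and all NSC livers were higher than all others. The log2 fold change was 0.55 ± 0.22 with vehicle (adjusted p = 0.089) and 1.39 ± 0.22 with NSC (adjusted p = 0.00082). Without vehicle replicate 3 the vehicle change was 0.73 and passed (adjusted p = 0.0462), and it also passed without NSC replicate 1 (adjusted p = 0.0382). NSC and vehicle differed by 0.85 ± 0.22 (adjusted p = 0.0965).

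Clec4f, the lectin receptor restricted to Kupffer cells, had the lowest log2 fold change of the 10 members in the vehicle group. It measured 90.0, 56.2 and 62.7 CPM at baseline, 45.0, 60.7 and 37.5 CPM with vehicle and 82.4, 70.3 and 67.4 CPM with NSC. Vehicle replicate 2 lay within the baseline range and the other vehicle livers below it, and all NSC livers lay within it. The log2 fold change with vehicle was -0.54 ± 0.21 (adjusted p = 0.079), and it passed without vehicle replicate 2, at -0.75 (adjusted p = 0.0338). With NSC it was 0.08 ± 0.21 (adjusted p = 0.80). Every NSC liver was above every vehicle liver, with a log2 difference of 0.62 ± 0.21 (adjusted p = 0.152).

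The direct comparison of NSC with vehicle gave few calls for any gene: no gene rose (0%) and 6 fell (0.0399%), while 2929 genes had an unadjusted p under 0.05. The members with an unadjusted p under 0.05 were 4 (Timd4, Vsig4, Cd5l and Clec4f). The same 4 were those whose NSC livers lay above all vehicle livers, which rests on the same values as these p and adds nothing to them. The share of all genes that separate in this way is not given here, so this count only describes the members. The call of the first 3 depended on the procedure. With DESeq2, Cd5l (adjusted p = 0.0164), Vsig4 (adjusted p = 0.00243) and Timd4 (adjusted p = 0.00256) passed, and so did 724 genes in all. That run started from 24325 genes and used its own filter, but on the 15024 genes of the edgeR test, an alternative added after the data were seen, DESeq2 called the same 3 members and 758 genes. With every gene of at least 1 count kept in edgeR, the same 3 members and 221 genes in all passed. Without NSC replicate 1, Vsig4 (log2 0.86, adjusted p = 0.0291) and Timd4 (log2 1.16, adjusted p = 0.0437) passed among 994 genes. Over all alternatives the adjusted p ranged from 0.0157 for Cd5l, 0.00233 for Vsig4 and 0.00237 for Timd4 up to 0.284 for each. An exact permutation test of 3 livers against 3 cannot give a two-sided p below 0.1.

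**Figure D2:**
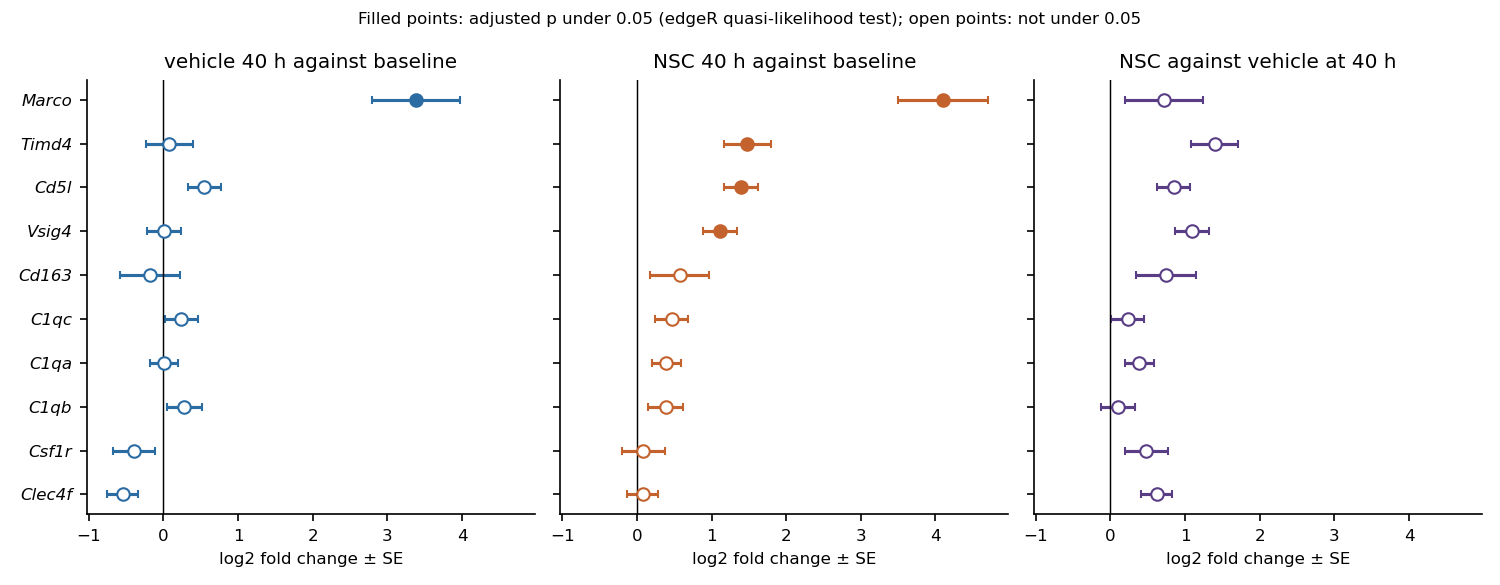
Log2 fold change ± SE of the 10 members in the 3 comparisons (edgeR, 9 livers in 1 fit, 3 per group). Filled points have an adjusted p under 0.05: Marco in the left panel and Marco, Timd4, Cd5l and Vsig4 in the middle one. No point is filled in the right panel, where all 10 lie above 0.

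The C1q genes lie near each other on the minus strand of chromosome 4 (GRCm38, C1qb at chr4:136880129-136886187, C1qc at chr4:136889804-136893065 and C1qa at chr4:136895917-136898803), and none of them passed against baseline. C1qa, the A chain, measured 22.8, 21.4 and 19.7 CPM at baseline, 19.97, 27.7 and 16.6 CPM with vehicle and 30.9, 23.0 and 30.2 CPM with NSC. All NSC livers were above all baseline livers, though the lowest of them by a small margin, and the vehicle livers overlapped both groups. Its log2 fold change was 0.01 ± 0.19 with vehicle and 0.40 ± 0.19 with NSC (adjusted p = 0.13). C1qb, the B chain, measured 34.2, 27.8 and 28.7 CPM at baseline, 38.3, 46.0 and 25.9 CPM with vehicle and 52.5, 32.3 and 33.7 CPM with NSC, and its groups overlapped. C1qc, the C chain, measured 24.9, 19.4 and 19.6 CPM at baseline, 26.5, 31.5 and 17.2 CPM with vehicle and 34.0, 23.5 and 30.8 CPM with NSC, with overlap likewise. Their log2 fold changes were 0.28 ± 0.23 and 0.24 ± 0.22 with vehicle, and 0.38 ± 0.23 (adjusted p = 0.22) and 0.47 ± 0.22 (adjusted p = 0.12) with NSC. Without NSC replicate 1 the C1qb change with NSC was 0.12, and without vehicle replicate 2 the changes with vehicle were 0.09 for C1qb and 0.04 for C1qc. With libraries scaled by total alone, C1qa (log2 0.54, adjusted p = 0.0422) and C1qc (log2 0.62, adjusted p = 0.0476) passed in the NSC group. That scaling moved the median of all genes to 0.15.

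Csf1r, the receptor for the macrophage growth factors CSF1 and IL-34, did not pass in any comparison. It measured 34.3, 23.97 and 24.6 CPM at baseline, 21.8, 28.7 and 12.5 CPM with vehicle and 37.3, 27.1 and 23.7 CPM with NSC. The lowest value was that of vehicle replicate 3, and the groups overlapped. The log2 fold change was -0.39 ± 0.28 with vehicle (adjusted p = 0.35), 0.09 ± 0.28 with NSC (adjusted p = 0.83) and 0.48 ± 0.28 between NSC and vehicle (adjusted p = 0.37). The last value became 0.22 when vehicle replicate 3 was left out, 0.27 when NSC replicate 1 was, and 0.77 when vehicle replicate 2 was, and the value with vehicle became -0.12 when replicate 3 was left out. Cd163, the hemoglobin scavenger receptor, measured 12.3, 15.7 and 6.50 CPM at baseline, 10.4, 12.0 and 8.08 CPM with vehicle and 27.3, 13.6 and 10.3 CPM with NSC. NSC replicate 1 was the only liver above the baseline range. The log2 fold change was -0.18 ± 0.40 with vehicle (adjusted p = 0.79) and 0.57 ± 0.40 with NSC (adjusted p = 0.30). Without NSC replicate 1 the change with NSC was 0.05, and the difference between NSC and vehicle was 0.22 in place of 0.75.

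Levels of different members were compared per gene length, in FPKM. At baseline Clec4f (27.2 FPKM), C1qb (26.8 FPKM), Cd5l (24.5 FPKM) and C1qa (19.8 FPKM) were the highest. C1qc (10.6 FPKM), Vsig4 (8.03 FPKM) and Csf1r (5.45 FPKM) followed, and Cd163 (2.47 FPKM), Marco (1.91 FPKM) and Timd4 (1.29 FPKM) were the lowest. Clec4f, C1qb and Cd5l, as neighbours in this order, did not differ beyond the spread of the 3 livers. The ranges of Timd4 (1.003 to 1.86 FPKM), Marco (1.31 to 2.54 FPKM) and Cd163 (1.41 to 3.38 FPKM) overlapped, so their order is not resolved either.

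The ratio of a marker to Clec4f in the same liver does not depend on how the library was scaled, and shows unequal change of the 2 genes. The FPKM ratio of Vsig4 to Clec4f was 0.299, 0.294 and 0.293 in the baseline livers, 0.398, 0.401 and 0.532 with vehicle and 0.700, 0.537 and 0.563 with NSC. The 3 groups did not overlap, although vehicle replicate 3 came close to the lowest NSC liver. The separation of the 40 h groups depended on the reference gene. Relative to Csf1r, Vsig4 was at 1.62, 1.68 and 3.16 with vehicle and 3.06, 2.75 and 3.17 with NSC, which overlap, and Timd4 was at 0.296, 0.305 and 0.439 with vehicle and 0.635, 0.654 and 0.561 with NSC, which do not. The ratio of Timd4 to Clec4f was 0.0531, 0.0464 and 0.0407 at baseline, 0.0728, 0.0729 and 0.0739 with vehicle and 0.145, 0.128 and 0.0998 with NSC. These were again 3 separate ranges. With vehicle, however, the levels of Vsig4 and Timd4 themselves were at log2 changes of 0.01 and 0.08 over baseline. Clec4f was at -0.54 and Csf1r at -0.39, and none of these passed. Relative to Csf1r the baseline livers were at 1.36 to 1.55 for Vsig4 and 0.205 to 0.275 for Timd4, below the vehicle livers. The ratio of Cd5l to Clec4f was 0.813, 0.961 and 0.969 at baseline, 2.02, 1.91 and 1.82 with vehicle and 2.54, 1.94 and 2.19 with NSC. For Cd5l both 40 h groups lay above baseline and overlapped each other. That of Marco to Clec4f was 0.0374, 0.116 and 0.0764 at baseline, 1.503, 1.05 and 0.582 with vehicle and 1.68, 0.702 and 0.955 with NSC, so that Marco went from a small share of the Clec4f level to about the same level. The ratio of C1qa to Clec4f was 0.603 to 0.905 at baseline, 1.05 to 1.08 with vehicle and 0.778 to 1.06 with NSC, while the C1qa level itself was at a log2 change of 0.01 with vehicle and that of Clec4f at -0.54. The ratio of Csf1r to Clec4f overlapped between the groups, at 0.193 to 0.216 at baseline, 0.168 to 0.246 with vehicle and 0.178 to 0.229 with NSC. The ratio of C1qc to C1qa was 0.487 to 0.587 at baseline, 0.559 to 0.714 with vehicle and 0.549 to 0.593 with NSC.

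**Figure D3:**
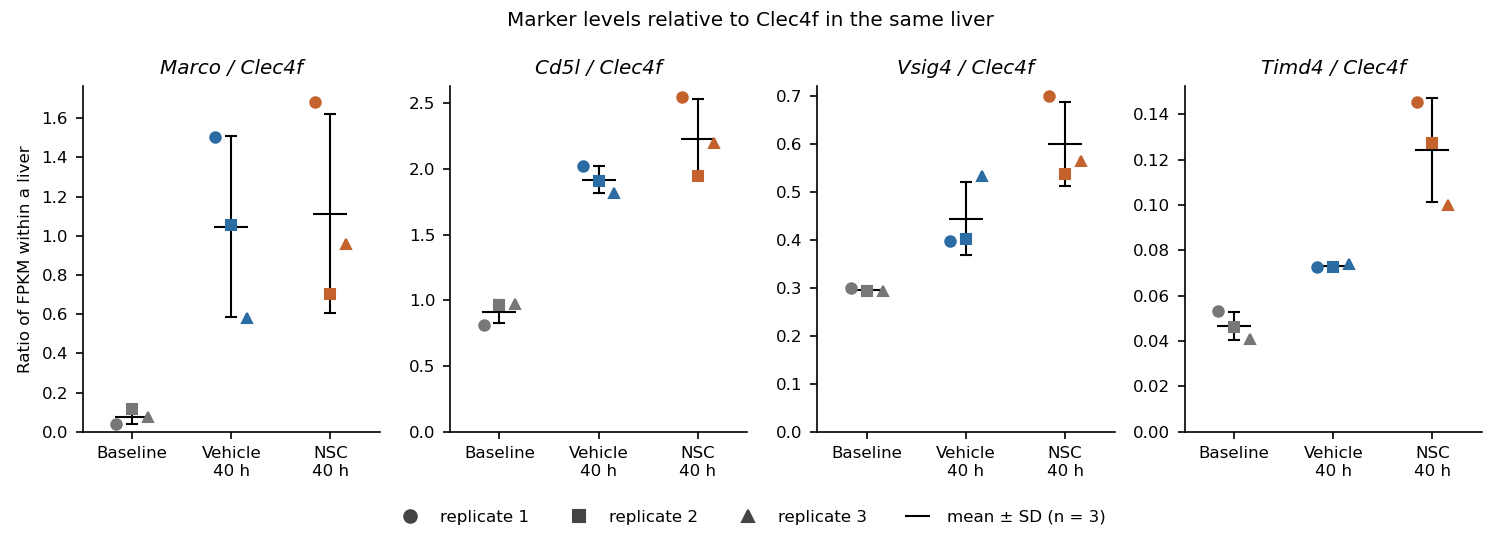
Ratio of the FPKM of Marco, Cd5l, Vsig4 and Timd4 to that of Clec4f within each liver, on linear axes that start at 0. Points are livers (n = 3 per group) and bars are mean ± SD. The ratios of all 4 genes are lowest in the baseline livers, and those of Vsig4 and Timd4 are highest in the NSC livers. The log2 change of the level with vehicle was 0.01 for Vsig4, 0.08 for Timd4 and -0.54 for Clec4f.

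Correlations of the markers across the 9 livers are given as a description with no test because the livers share groups. On log2 CPM, Pearson's r was 0.98 for Vsig4 and Timd4, 0.92 for Cd5l and Timd4 and 0.91 for Cd5l and Vsig4. It was also 0.91 for Clec4f and Csf1r and for C1qb and C1qc, 0.90 for C1qa and C1qc and 0.85 for Cd5l and Marco. The lowest value of all pairs was -0.08, for Clec4f and Marco. The 5 other genes most like the mean of Clec4f, Cd5l, Marco, Vsig4 and Timd4 were Treml4 (r = 0.98), Cd53 (0.97), Kit (0.97), Gfra2 (0.97) and Il10rb (0.96). Their log2 changes with NSC over baseline ran from 0.61 for Il10rb to 2.00 for Gfra2. Since they were picked for likeness over these same livers, that direction follows from the choice. Most like the mean of the C1q genes were Fcer1g (r = 0.95), Kcnk6 (0.95), Cfp (0.93), G6pdx (0.92) and Sdc3 (0.92). Their log2 changes with NSC ran from 0.33 (G6pdx) to 0.66 (Kcnk6).

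Of 19 other genes of Kupffer cells and their regulators, 3 rose and 2 fell with vehicle, near the 12.7% and 11.0% of all genes, and 6 rose and 2 fell with NSC, against 18.2% and 16.5%, with medians of -0.16 and 0.30. Hmox1, which breaks down heme, went from 10.9 to 17.8 CPM at baseline to 36.5 to 44.9 CPM with vehicle and 27.7 to 44.7 CPM with NSC, with log2 rises of 1.51 ± 0.21 and 1.30 ± 0.21 (adjusted p = 0.00062 and 0.00092). Il18bp, the decoy for interleukin 18, rose by 1.20 and 1.07. Rxra, a nuclear receptor partner that hepatocytes also express, fell with NSC (-0.70, adjusted p = 0.0080). Hmox1 and Rxra are also expressed outside macrophages.

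Of 20 pan-macrophage genes, 2 rose with vehicle, a share below the 12.7% of all genes, and 6 rose with NSC, where 18.2% of all genes did. None fell, and the medians were 0.29 and 0.84. Whether the 2 counts differ was not tested. Mpeg1, which forms pores in engulfed microbes, measured 46.2 to 61.5 CPM at baseline, 63.0 to 99.6 CPM with vehicle and 99.5 to 149 CPM with NSC (log2 0.60, adjusted p = 0.057, and 1.14, adjusted p = 0.0018). Cd68, a lysosomal glycoprotein, rose in both groups (1.04 and 0.97). Aif1, which encodes IBA1, rose with NSC (0.93) and was at 0.04 with vehicle, and Cd14, the lipopolysaccharide co-receptor, rose with vehicle (2.27) and was at 1.19 with NSC (adjusted p = 0.053). Adgre1, which encodes F4/80 and was added after its values were seen, measured 32.2 CPM in NSC replicate 1 and 9.68 and 12.3 CPM in the others, against 6.14 to 10.05 CPM at baseline (log2 1.20 ± 0.44, adjusted p = 0.064). The summed level of the 20 genes was 174 to 215 CPM at baseline, 203 to 312 CPM with vehicle and 275 to 453 CPM with NSC, the highest in NSC replicate 1. The 10 members summed to 226 to 302, 205 to 370 and 371 to 590 CPM.

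Of 12 genes of monocytes that enter the liver, 7 rose with vehicle and 8 with NSC, none fell (12.7% and 18.2% of all genes rose), and the medians were 1.83 and 1.91. Plac8 measured 4.09 to 6.89 CPM at baseline, 11.5 to 13.6 CPM with vehicle and 13.5 to 15.0 CPM with NSC (log2 1.08 ± 0.20 and 1.29 ± 0.20, adjusted p = 0.0027 and 0.00068). Ccl2, the monocyte chemoattractant, was at 0.0916 to 0.495 CPM at baseline, where 3 reads correspond to about 0.1 CPM, and rose by 3.35 and 2.52. Cx3cr1, the fractalkine receptor of monocytes, rose by 2.12 and 1.88, and Vcan by 4.17 and 2.71, with NSC replicate 3 at 0.117 CPM, within the baseline range. Between NSC and vehicle the median log2 difference was -0.15 for this list, 0.67 for the 10 members, 0.67 for the 4 tested T and NK cell markers, 0.52 for proliferation markers, 0.49 for sinusoidal endothelial markers, 0.42 for the other Kupffer cell genes and 0.40 for the pan-macrophage genes, so that positive medians were not limited to macrophage genes. Ly6c2, which defines inflammatory monocytes and was named after its values were seen, was at 0.231 to 0.501 CPM in all 9 livers (log2 0.25 and 0.26, neither passing). Of 15 genes of lipid-associated and wound macrophages, 6 rose with vehicle, and 5 rose and 1 fell with NSC. The gene that fell was Arg1 (mean 2262 CPM at baseline), named after its values were seen. Whole liver does not show which cells express the genes of this list. Cd63, a lysosomal tetraspanin, rose by 2.24 and 1.84 and Cd9 by 0.64 and 0.81. Spp1, which is also counted among the cholangiocyte markers below, rose by 1.14 and 1.35. Mmp12 rose with vehicle (3.26) and was at 1.72 with NSC (adjusted p = 0.078).

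**Figure D4:**
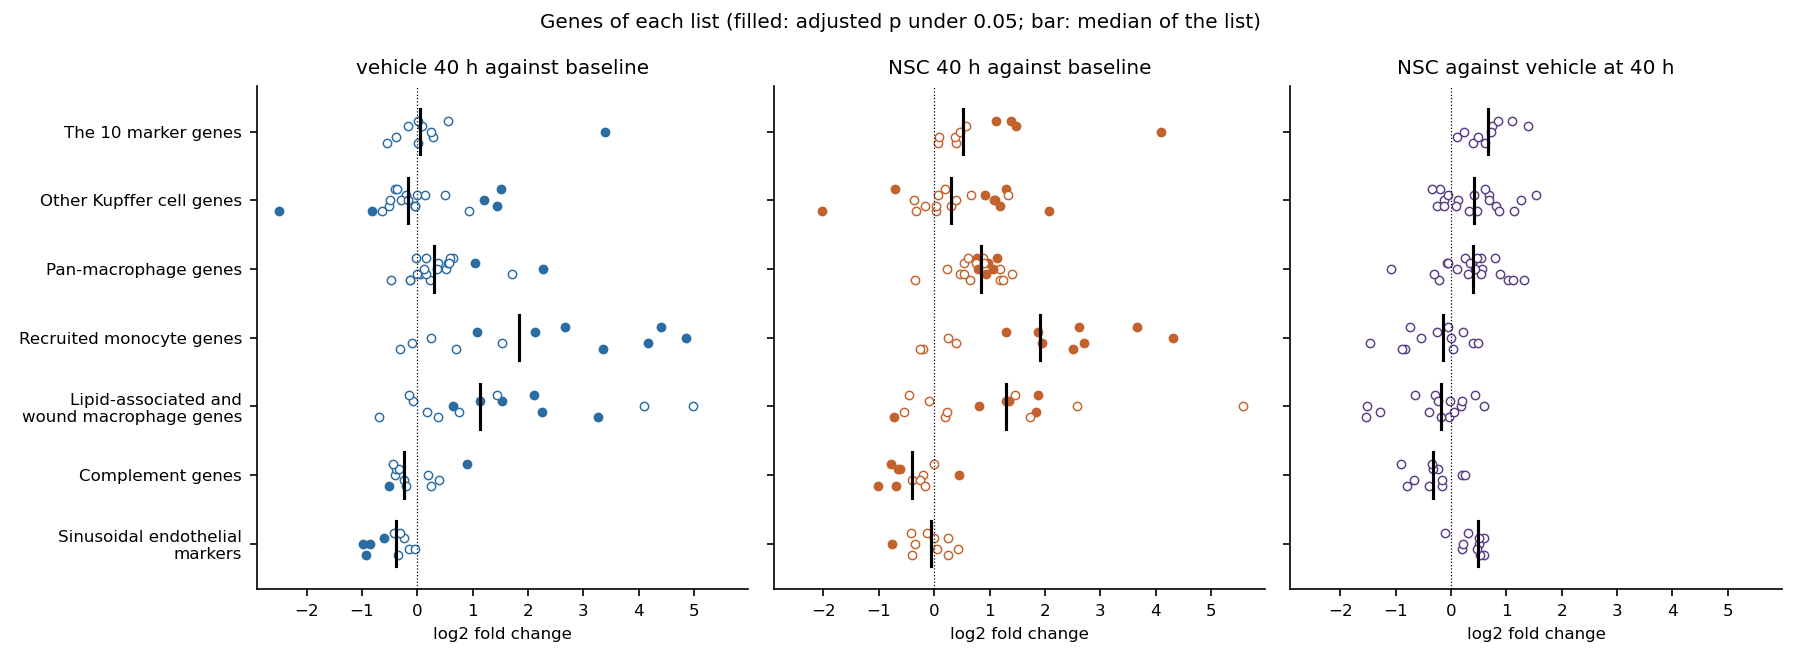
Log2 fold change of each tested gene in the 10 marker genes and 6 other lists, for the 3 comparisons (edgeR, 3 livers per group). Filled points have an adjusted p under 0.05 and black bars are list medians. In the right panel the bar of the marker genes is at 0.67 and that of the recruited monocyte genes at -0.15, and no point is filled.

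For the partners of the markers in their pathways, the vehicle counts were near the shares of all genes that rose (12.7%) and fell (11.0%). With NSC, 18.2% of all genes rose and 16.5% fell. Around Csf1r, 8 genes were tested, of which 1 rose and 1 fell with vehicle and 2 rose and 1 fell with NSC. Csf1, one of its ligands, was at 10.1 to 11.2 CPM at baseline, 14.6 to 15.2 CPM with vehicle and 8.73 to 15.5 CPM with NSC, and did not pass (adjusted p = 0.091 and 0.74). Csf2rb, a receptor subunit for GM-CSF, rose in both groups (1.11 and 1.17), Cebpa, a factor that hepatocytes and myeloid cells use, fell in both (-1.55 and -1.32), and Tfec, a macrophage transcription factor, rose with NSC (1.49). Csf2 had no read in any library. Of 16 scavenger receptors and genes for the uptake of dying cells, 3 rose and 2 fell with vehicle and 3 rose and 3 fell with NSC. Pros1, a bridging ligand for such uptake that hepatocytes secrete, rose by 0.84 and 1.13, Colec12 fell (-0.61 and -0.48), and Stab1 (-1.10) and Lrp1 (-0.89) fell with NSC. Of 11 other complement genes, 1 rose and 1 fell with vehicle and 1 rose and 5 fell with NSC. C1ra, a protease bound to C1q, fell in both groups (-0.52 and -0.69), C4b (-1.01) and Masp2 (-0.79) fell with NSC, and C3 rose with vehicle (0.90). Most of these complement components are made by hepatocytes, and the median of the list was -0.23 with vehicle and -0.39 with NSC.

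Markers of other liver cells moved at the same time, and their part in the results above was not tested. For the counts that follow, 12.7% of all genes rose and 11.0% fell with vehicle, and 18.2% rose and 16.5% fell with NSC. Of 9 hepatocyte markers, 1 rose and 3 fell with vehicle and 4 fell with NSC, among them Tat (-1.25 and -1.93) and Ass1 (-1.43 and -1.99), while Trf rose with vehicle (0.76) and Cps1 fell with NSC (-1.25). Of 10 sinusoidal endothelial markers, 4 fell with vehicle (Oit3, Dnase1l3, Kdr and Fcgr2b) and 1 with NSC (Oit3). Their summed level was 286 to 296 CPM at baseline, 168 to 260 CPM with vehicle and 209 to 350 CPM with NSC, and the NSC value of 350 CPM was that of replicate 1. Between NSC and vehicle 9 of the 10 had log2 differences above 0, with a median of 0.49, and none passed. Of 10 stellate cell markers, 6 rose and 1 fell with vehicle and 2 rose and 2 fell with NSC, with Hgf (1.73 and 1.80) and Rgs5 (0.71 and 0.98) up in both, Ecm1 down in both (-0.94 and -1.55) and Pdgfrb up with vehicle (0.88). Of 5 cholangiocyte markers, 4 rose with vehicle (Krt7, Krt19, Sox9 and Spp1) and 3 with NSC (Krt7, Krt19 and Spp1). Of 6 proliferation markers all 6 rose in both groups, Mki67 by 6.55 and 7.07. Mki67 was at 61.2 CPM in NSC replicate 1 and at 239 and 160 CPM in NSC replicates 2 and 3. In vehicle replicates 1, 2 and 3 it was at 112, 121 and 87.5 CPM. Among the NSC livers, replicate 1, the highest for all 10 members, had the lowest Mki67 level. Among the vehicle livers, replicate 2, the highest for 9 of the 10, had the highest Mki67 level.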

How the data were processed

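RNA of 9 whole-liver samples was sequenced. Per the labels and the study's methods, the authors aligned reads with STAR 2.6.1, assigned them to genes with Subread 1.5.1 (featureCounts) and deposited raw counts per gene, 1 column for each library and none pooled. The labels name a human build (hg38), whereas the deposited genes carry mouse identifiers and GRCm38 positions. The strand setting of the counting is not given in the sources used here, so reads of overlapping genes cannot be separated. The deposited FPKM values follow from the same counts, the gene lengths and the library totals (largest relative difference 4.96e-10).

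The test was run in edgeR 4.0.16 under R 4.3.3 (TMM factors, filterByExpr, 1 robust quasi-likelihood fit of 9 libraries, group as the only term), with Benjamini-Hochberg adjustment over 15024 genes. SE is the absolute log2 fold change divided by the square root of F. On simulated data, 170 of 200 genes changed 4-fold were recovered for vehicle and 168 for NSC. False calls numbered 9 and 7 among 14787 genes. Each gene was drawn independently there, so differences between livers that many genes share were not simulated, and these counts do not cover them. Smaller changes, such as those of Timd4, Cd5l and Vsig4 with NSC, were not simulated. Nor were changes between NSC and vehicle, so recovery of these is not known.

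The 18 gene lists (192 genes), the members among them, were chosen with earlier results of these data known. All 10 members are named. Of each other list, up to 4 genes with the smallest adjusted p in any comparison are named, and the 5 genes most correlated with the mean log2 CPM (prior count 2) of each of 2 member groups. Some genes that this rule names are not reported here. Adgre1 is listed as Emr1 and was matched by identifier. Nothing states whether a specimen and a remnant with the same number came from 1 mouse. Deviations of same-numbered libraries correlated by -0.0479 to 0.134 over 9 pairs, and those of differently numbered libraries by -0.115 to 0.0659 over 18 pairs. The highest values were thus those of same-numbered libraries, and a shared origin or batch behind the numbers was not tested. Since no source names pairs, the numbers were left out of the main fit, and a fit with them as a term is given below.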

Additional observations from a re-analysis of the deposited data

How the results depend on the processing

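Precision rests on 3 livers per group. Alternatives were DESeq2 1.42.0, RLE factors, library size only, other filters, only the 2 groups compared, a fold threshold, the replicate number as a term and each of 9 libraries left out. The NSC count was 4 members under all of them except library size only (6) and the fold threshold (1). With libraries left out, members passing ranged from 1 to 2 with vehicle and from 0 to 2 between NSC and vehicle, where DESeq2, DESeq2 on the genes of the edgeR test (added after the data were seen) and the filter of at least 1 count gave 3. The median log2 difference between NSC and vehicle ranged from 0.29 (without NSC replicate 1) to 0.85 when libraries were left out, that with vehicle from -0.12 to 0.31 and that with NSC from 0.34 to 0.66. Between NSC and vehicle 6 genes passed in all, against 724 with DESeq2, 758 with DESeq2 on the same genes, 221 with the filter of at least 1 count and 994 without NSC replicate 1; the cause was not tested.

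Values near 0 changed sign. With vehicle, Vsig4 was at -0.00096 with DESeq2, -0.00459 with DESeq2 on the same genes and -0.0046 with RLE factors, and C1qa at -0.0050, -0.00858 and -0.0088 under these and, with the replicate block, -0.00067. With libraries left out, the log2 fold change with vehicle ranged from -0.12 to 0.25 for Vsig4, -0.13 to 0.44 for Timd4, -0.22 to 0.17 for C1qa and -0.45 to 0.12 for Cd163. With NSC it ranged from -0.058 to 0.30 for Clec4f and -0.12 to 0.27 for Csf1r, and between NSC and vehicle from -0.16 to 0.30 for C1qb. Of the single-gene values, 499 kept direction and call, 16 gained a call, 3 lost one and 22 changed sign.

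With the replicate block, 1, 4 and 0 members passed, as without it, with medians of 0.08, 0.52 and 0.65, and 11 genes in all passed between NSC and vehicle in place of 6. Not every library correlated best with those of its own number.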

Other observations

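The other blood cell markers measured in these livers moved in several directions. Of all genes tested, 12.7% rose and 11.0% fell with vehicle, and 18.2% rose and 16.5% fell with NSC. Of 6 neutrophil markers, 2 rose with vehicle (Retnlg and Mmp8) and 4 with NSC (also S100a8 and S100a9), and the 8 listed neutrophil genes summed to 3.91 to 11.8 CPM at baseline, 10.2 to 21.7 CPM with vehicle and 13.9 to 23.6 CPM with NSC. Of 6 dendritic cell markers 1 passed, Ccr7, which fell with vehicle (log2 -2.73). It was at or below 0.528 CPM in every liver. Of 10 T and NK cell markers 4 were abundant enough to be tested, and Cd3g fell with vehicle (-2.46) and was at -0.23 with NSC. The 10 summed to 2.47 to 6.10 CPM at baseline, 1.10 to 1.76 CPM with vehicle and 2.34 to 3.4 CPM with NSC. Of 7 B and plasma cell markers, 1 fell with vehicle and 2 with NSC, among them Ighm (-1.70, adjusted p = 0.0391 with NSC). Of 6 erythroid markers, Car1 (-4.97 and -3.39) and Alas2 (-1.83 and -1.60) fell in both groups.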
